A study of Saccharomyces cerevisiae with 22 samples.

Results

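The response of budding yeast to overexpression of untagged PSD1 was measured across all genes. The comparison took 11 of the 22 libraries of the series, namely the 6 libraries of cells with a PSD1 plasmid and the 5 of cells with an empty plasmid. Membership follows the labels and uses no measured value. All cells were of the laboratory strain W303 of Saccharomyces cerevisiae, and every group received galactose. In the empty group the cells held a 2u (multicopy) plasmid with no insert. In the PSD1 group the 2u plasmid expressed PSD1 from the GAL1-10 promoter, which galactose turns on. Both groups had grown in a rich medium with 2% raffinose and then had 2% galactose for 4 h, so the controls share the sugar shift and differ in the insert. The other 11 libraries, used only where a difference is tested, came from cells with V5-tagged PSD1 on the same kind of plasmid (5 libraries) and from cells that lack PDR3 and carry the PSD1 plasmid (6 libraries). The copy number of a 2u plasmid varies from cell to cell, and the chromosomal PSD1 gene was not stated to be removed in any group. The labels do not say whether replicates were separate cultures, so p-values measure the spread between these libraries, which may be technical.

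Psd1 is a phosphatidylserine decarboxylase of the mitochondrial inner membrane and makes most of the phosphatidylethanolamine of the cell. Its precursor enters through the outer and inner membrane translocases, is cleaved on arrival, and clogs the import path when it is made in great excess. In yeast a response called mitoCPR, the mitochondrial compromised protein import response, then acts through the zinc-cluster transcription factor Pdr3, which induces Cis1. Cis1 recruits the ATPase Msp1 to the translocase, where Msp1 removes stalled precursors. Pdr3 and its paralogue Pdr1 also bind pleiotropic drug response elements in front of multidrug transporter genes. Precursors that stay in the cytosol are handled by the general protein quality control of the cell, with Hsf1, Rpn4 and Msn2/Msn4 as the main transcription factors that are known to answer to misfolded protein and stress.

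Promoter stretches of CIS1, PDR5, PDR15, YGR035C and PDR3 are shown first, with the Pdr1/Pdr3 element TCCGNGGA or its reverse complement in capitals. They were chosen from windows that hold the element, so its presence in them is not a result. Sequences are from the R64 genome of RefSeq (the sacCer3 build), read 5′ to 3′ on the strand of the gene. They come from chrXII:822898-822929 (minus strand) for CIS1, chrXV:619340-619546 (plus) for PDR5, chrIV:1278819-1278850 (plus) for PDR15, chrVII:557719-557852 (minus) for YGR035C and chrII:217234-217298 (plus) for PDR3.
CIS1: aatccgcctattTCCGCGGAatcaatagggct
PDR5: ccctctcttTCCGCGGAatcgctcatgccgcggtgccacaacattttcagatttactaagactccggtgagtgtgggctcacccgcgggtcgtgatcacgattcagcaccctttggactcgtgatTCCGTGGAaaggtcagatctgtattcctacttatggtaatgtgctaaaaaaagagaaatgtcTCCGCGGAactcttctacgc
PDR15: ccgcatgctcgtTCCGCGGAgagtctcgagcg
YGR035C: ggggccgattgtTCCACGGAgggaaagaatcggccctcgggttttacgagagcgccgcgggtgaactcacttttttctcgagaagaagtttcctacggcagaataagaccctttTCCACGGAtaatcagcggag
PDR3: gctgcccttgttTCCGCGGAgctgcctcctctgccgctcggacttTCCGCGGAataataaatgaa
The element of CIS1 begins 325 bases before the start codon, the elements of PDR5 at 491, 375 and 313, that of PDR15 at 379, those of YGR035C at 418 and 316, and those of PDR3 at 224 and 191. The element in CIS1 and PDR15, both elements in PDR3 and the outer pair in PDR5 are the full palindrome TCCGCGGA.

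The libraries held 8152941 to 16920928 counts. Levels are given in CPM, counts scaled to 1 common library total, with library sizes adjusted by the trimmed mean of M values. They are shares of the RNA of a library, so less of a transcript per cell and a smaller share cannot be told apart from more of the others. "Rose" and "fell" are used for genes with an adjusted p under 0.05 in the quasi-likelihood test of edgeR, adjusted over 6278 genes after Benjamini and Hochberg. Differences are log2 fold changes of PSD1 against empty with their standard error. This error was worked back from the test, as the size of the log2 fold change over the square root of its F statistic. The first principal component of log2 CPM (55.5% of the variance over 5799 genes) ran from −26.4 to −19.1 in the empty and from 8.62 to 33.2 in the PSD1 libraries, so the groups did not overlap on it. The median SD of log2 CPM within a group was 0.125 in the empty and 0.171 in the PSD1 group. The receptor gene of a cells, STE2, read 327 to 554 CPM in the 11 libraries and that of alpha cells, STE3, 4.22 to 14.4 CPM.

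Libraries also differed by gene length, and this touches the size of many changes below. For annotated genes other than those of cytosolic ribosomal proteins, the log2 level of the shortest of 5 equal length classes (78 to 648 coding bases) minus that of the longest (2121 to 14733) was taken in each library against the mean of the empty libraries. It was 0.02, −0.01, −0.15, 0.01 and 0.14 in empty replicates 1 to 5. In PSD1 replicates 1 to 6 it was 0.98, 0.76, 0.22, 0.40, 0.20 and 0.39, above every empty library and highest in replicates 1 and 2. The median log2 fold change went from 0.27 in the shortest class through 0.18, 0.05 and −0.07 to −0.24 in the longest. The Spearman correlation of coding length and log2 fold change over 5596 genes was −0.42, as a description across genes that share these libraries. Where the counts of a gene list are given, its median and the counts from 2 further fits stand in brackets, from a fit that takes out a smooth curve of coding length per library (the length offset) and from a fit without PSD1 replicates 1 and 2, both chosen after these values were seen. Over all genes the length offset gave 1669 higher (28.8%) and 1756 lower (30.3%) of the 5795 it could test, and the fit without PSD1 replicates 1 and 2 gave 1683 (26.8%) and 1455 (23.1%) of 6291, and the bracketed counts are to be read against these shares. The part of the length gradient in any single result was not tested.

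**Figure D1:**
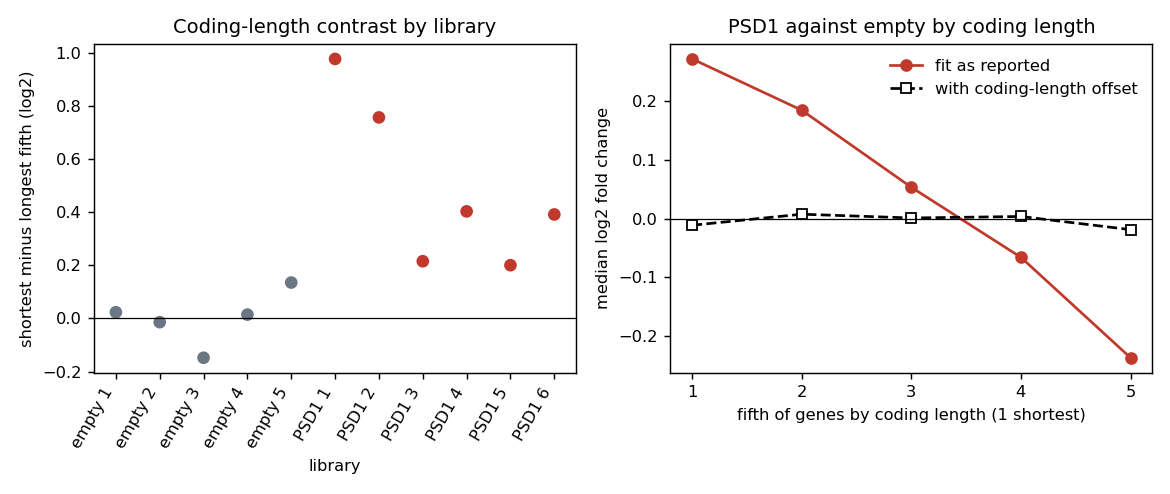
The left panel plots, for each of the 11 libraries, the log2 level of the shortest of 5 classes of genes by coding length minus that of the longest, relative to the mean of the empty libraries. The right panel plots the median log2 fold change of each class as reported (filled, from 0.27 to −0.24) and with the length offset (open, close to 0 throughout); PSD1 replicates 1 and 2 are the highest points on the left.

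The response was broad, and most of its changes were small. Of 6278 genes, 1863 were higher (29.7%) and 1689 lower (26.9%) with the PSD1 plasmid, 56.6% in all. The median log2 fold change over all genes tested was 0.02, against which the medians of the gene lists below can be read. Among genes that passed, the median rise was 1.42 fold and the median fall 1.33 fold. By at least 2 fold, 291 genes rose (4.64%) and 42 fell (0.669%), and 60 rose by at least 4 fold (2 on the log2 scale). The 42 falls became 80 without PSD1 replicate 3 and 73 without PSD1 replicate 5. In 1154 genes every PSD1 library was above every empty library (18.4% of the genes tested) and in 986 every one was below (15.7%). With the length offset 189 rose and 26 fell by at least 2 fold, and without PSD1 replicates 1 and 2 these were 261 and 19. Among the highest of 3 equal classes by mean CPM, 28.3% of the genes rose and 39.8% fell, whereas in the lowest 31.8% rose and 10.2% fell.

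The division of counts between groups of genes differed between the plasmids. PSD1 itself took 0.0438% ± 0.0142 of the counts in the empty libraries (SD, n = 5) and 1.51% ± 0.56 in the PSD1 libraries (n = 6). The 36 chaperone genes listed took 2.33% ± 0.10 and 4.66% ± 0.54, with libraries between 2.15% and 2.40% in the empty and between 3.72% and 5.16% in the PSD1 group. Cytosolic ribosomal protein genes (138) took 7.92% ± 1.05 and 5.27% ± 0.56, whereas the 4 galactose genes GAL1, GAL2, GAL7 and GAL10 took 3.27% ± 0.08 and 2.13% ± 0.30. In each of these groups the ranges of the PSD1 and empty libraries did not overlap. TDH3, the main glyceraldehyde-3-phosphate dehydrogenase gene of glycolysis, which shares reads with TDH1 and TDH2, rose from 0.851% ± 0.071 to 1.48% ± 0.12 of the counts.

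The transcript made from the plasmid varied widely between replicates. PSD1 (YNL169C, chromosome XIV, 316169 to 317671) read 603, 399, 372, 540.5 and 240.2 CPM in the empty libraries, which is the level of the chromosomal gene. In the PSD1 libraries it read 8094, 9938, 24966, 14162, 17203 and 17151 CPM for replicates 1 to 6. Every PSD1 library was thus above every empty library, with replicate 3 the highest and replicates 1 and 2 the lowest, which are the libraries with the steepest length gradient. The rise was 35.5 fold (5.15 ± 0.32 on the log2 scale, adjusted p = 5.63e-10). GAL1, the galactokinase gene, whose promoter is part of the same GAL1-10 region that drives the plasmid, went the other way. It read 11839, 11824, 10660.0, 11513 and 11356 CPM in the empty libraries and 5875 to 8241 (median 6975) in the PSD1 libraries, a fall of 1.65 fold in linear terms (log2 −0.72 ± 0.10, adjusted p = 4.94e-06). GAL10 (−0.46 ± 0.10), GAL7 (−0.59 ± 0.12) and the galactose permease gene GAL2 (−0.55 ± 0.12) fell too. Against the V5-PSD1 plasmid, which carries the same promoter, GAL7 (0.49 ± 0.12, adjusted p = 0.0032) and GAL10 (0.32 ± 0.10, adjusted p = 0.012) were higher with untagged PSD1, while GAL1 (0.14 ± 0.10, adjusted p = 0.259) and GAL2 (0.20 ± 0.12, adjusted p = 0.182) did not pass. GAL10 did not pass against the empty plasmid in series 5 alone. URA3, a gene of uracil synthesis that is a common plasmid marker, read 16912, 15378, 14686, 11659.8 and 14297 CPM in the empty and 17302, 9553, 10393, 8836, 10139 and 10182 in the PSD1 libraries. Replicate 1 was within the empty range, and the log2 difference of −0.38 ± 0.13 (adjusted p = 0.0174) did not pass in series 5 alone. The labels do not name the marker of the plasmids, so reads of URA3 from a plasmid and from the chromosome cannot be told apart.

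The Pdr3 branch gave the steepest rise among annotated genes other than those of transposons. CIS1 (YLR346C, chromosome XII, 822287 to 822592), which links the import channel to Msp1, was close to silent in the empty libraries at 0.569, 0.625, 0.871, 0.568 and 0.314 CPM. With the PSD1 plasmid it read 53.2, 119.8, 13.7, 49.0, 42.6 and 42.7 CPM in replicates 1 to 6. Replicate 2 was the highest and replicate 3, the library with most PSD1 mRNA, the lowest, and all 6 were above the empty group. The rise was 93.3 fold (log2 6.54 ± 0.49, adjusted p = 4.06e-09). PDR5 (YOR153W, chromosome XV, 619840 to 624375), the main multidrug efflux pump of the plasma membrane, read 241, 261, 295, 306 and 321 CPM in the empty and 1734, 3051, 1436, 2797, 2985 and 2606 in the PSD1 libraries. The 2 lowest values of PDR5 were those of replicates 3 and 1, and no library overlapped the other group (log2 3.06 ± 0.16, adjusted p = 1.02e-10). PDR15 (YDR406W, chromosome IV, 1279210 to 1283799), a close relative of PDR5, read 83.1 to 129 CPM in the empty and 672 to 1118 (median 911) in the PSD1 libraries (log2 3.06 ± 0.21, adjusted p = 1.9e-09). The small gene YDR406W-A beside PDR15 is not read separately here, since the strand setting of the counts is not given.

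**Figure D2:**
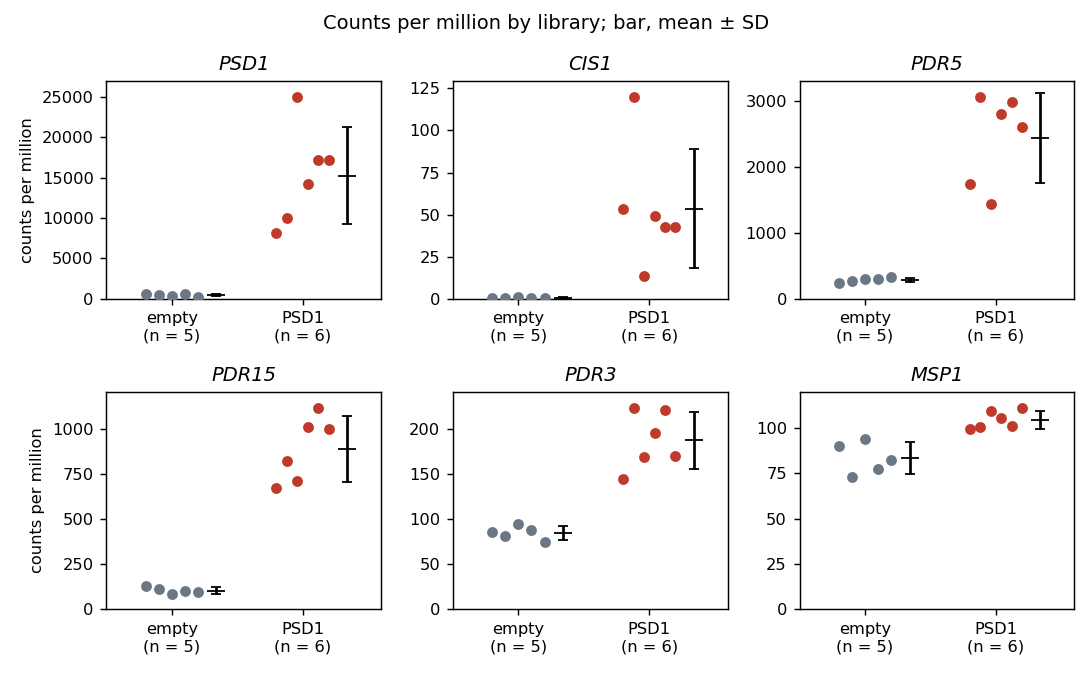
CPM of PSD1 and of 5 genes of the import-stress and drug-resistance branch in each library, with the mean and SD of each group at the right of its points. In all 6 panels the PSD1 libraries lie above the empty libraries, by far the most for PSD1 and CIS1, and by the least for MSP1 (empty 73.2 to 94.1, PSD1 99.4 to 111 CPM).

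The transcription factor genes of this branch had smaller log2 fold changes than CIS1, PDR5 and PDR15. PDR3 (YBL005W, chromosome II, 217470 to 220400), whose own promoter holds both elements shown above, read 85.8, 81.2, 95.1, 88.2 and 74.3 CPM in the empty libraries and 145 to 224 (median 183) in the PSD1 libraries, with no overlap. It rose 2.21 fold (log2 1.14 ± 0.11, adjusted p = 5.95e-08). PDR1 (YGL013C, chromosome VII, 469092 to 472298), the paralogue, read 118 to 133 and 121 to 153 (median 139) CPM, and the groups overlapped. Its log2 difference of 0.12 ± 0.07 did not pass (adjusted p = 0.17), but it was 0.37 with the length offset (adjusted p = 1.85e-05) and 0.20 without PSD1 replicates 1 and 2 (adjusted p = 0.034). MSP1 (YGR028W, chromosome VII, 542203 to 543291), the ATPase that Cis1 recruits, read 73.2 to 94.1 CPM in the empty and 99.4 to 111 (median 104) in the PSD1 libraries, a rise of 1.26 fold (log2 0.33 ± 0.06, adjusted p = 0.000259) that did not pass in series 5 alone. Among 28 genes of stress and drug transcription factors, 9 rose and 6 fell (median 0.05, 12 and 2 with the length offset, 11 and 3 without PSD1 replicates 1 and 2), beside 29.7% higher and 26.9% lower over all genes. Beside PDR3 the largest rises in that list were XBP1 (0.84 ± 0.16), a repressor induced by stress and starvation, and RPN4 (0.83 ± 0.11), the activator of proteasome genes. HSF1, the activator of heat shock genes, stood at 0.09 ± 0.08 (adjusted p = 0.374), and MSN4 at 0.05 ± 0.08 (adjusted p = 0.619), and neither passed.

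Some further transporters and enzymes of the drug-response branch rose. Among ABC transporters, 8 of 20 genes rose and 6 fell (median 0.13, 12 and 4 with the length offset, 11 and 4 without PSD1 replicates 1 and 2), beside 29.7% higher and 26.9% lower over all genes. SNQ2, a drug pump related to PDR5, read 191 to 253 CPM in the empty and 327 to 545 (median 506) in the PSD1 libraries and rose by 1.08 ± 0.13, and YOR1, the oligomycin pump, rose by 0.71 ± 0.15. The a-factor exporter gene STE6 (−0.61 ± 0.13) and the mitochondrial transporter gene ATM1 (−0.43 ± 0.05) fell, so the ABC list did not move as one. RSB1, which helps export sphingoid bases, rose by 1.16 ± 0.15, and LAC1, a ceramide synthase subunit gene, by 0.91 ± 0.11. YGR035C, a gene without a settled function, read 1.49, 1.02, 1.06, 2.73 and 3.20 CPM in the empty and 19.8, 70.4, 4.00, 29.2, 16.7 and 13.3 in the PSD1 libraries. Its rise of 3.78 ± 0.54 (adjusted p = 8.48e-06) had the same highest and lowest libraries as that of CIS1, replicates 2 and 3. Among 13 major facilitator drug transporters, 3 rose (median 0.12, 5 with the length offset, 5 without PSD1 replicates 1 and 2), a share of rises below that of all genes, with AQR1 at 0.90 ± 0.24 and the fluconazole-resistance transporter gene FLR1 at 0.39 ± 0.07.

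The same plasmid in cells without PDR3 was compared directly. Between the PSD1 plasmid with and without PDR3, 25 genes were higher with PDR3 (0.398% of 6278) and 1 was lower (0.0159%). The Spearman correlation of coding length with this difference was −0.48 over 5596 genes, and the length contrast of the libraries without PDR3 was 0.16 to 0.49. With the length offset 26 genes were higher and 1 lower, and without PSD1 replicates 1 and 2 there were 20 and 0. The deleted gene read 10.30 ± 0.19 log2 apart (adjusted p = 1.78e-19), a fitted value against libraries near 0. CIS1 was higher by 4.87 ± 0.39 (adjusted p = 1.18e-07), PDR5 by 3.47 ± 0.15 (adjusted p = 1.68e-12), PDR15 by 2.98 ± 0.19 (adjusted p = 2.38e-09) and YGR035C by 3.60 ± 0.50 (adjusted p = 0.000374). GRE2 (1.45 ± 0.19), BDH2 (1.60 ± 0.17), ARI1 (1.26 ± 0.19), RSB1 (1.07 ± 0.14), SNQ2 (0.83 ± 0.13), YOR1 (0.66 ± 0.14), LAC1 (0.69 ± 0.11), ICY1 (1.01 ± 0.19), MIG2 (0.65 ± 0.14) and the reticulophagy receptor gene ATG40 (0.68 ± 0.10) were also higher with PDR3. The 1 lower gene was POL12, a subunit of DNA polymerase alpha, named after its value was seen, at −0.25. Genes of other roles described below, for example these 6, did not pass this test, with log2 differences of 0.06 ± 0.10 for SSA1, 0.13 ± 0.37 for HSP26, 0.18 ± 0.15 for AHP1, 0.04 ± 0.12 for COX14, −0.11 ± 0.12 for RPA135 and −0.11 ± 0.09 for FAR1. Both groups of this test carry the PSD1 plasmid, and the PSD1 libraries are shared with the main comparison, so each value stands for its own contrast.

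The element was also counted in all promoters. In 500 bases before the start codon of 5717 protein-coding genes, searched on both strands, the palindrome TCCGCGGA was found in 34 (0.595%). Of those 34 genes 26 rose (76.5%), beside 29.7% of all genes tested and 1744 of the 5717 protein-coding genes. Among the 235 of these genes that rose at least 2 fold, 11 held it (4.68%). The wider form TCCGNGGA, which includes the palindrome, was found in 168 promoters (2.94%), of which 47.6% rose and 21.4% fell. Of the 25 genes higher with PDR3 than without, 24 had such a window. Leaving out PDR3 itself, whose difference the deletion fixed, 15 of the other 23 held TCCGNGGA (65.2%), while 64 of the 80 holders that rose over the empty plasmid did not pass that test. The holders that passed included BDH2, ICT1, IPT1 and PDR16 as well as the genes shown above. SNQ2, RSB1 and ARI1 rose without this spelling in their windows, which says only that these letters are not there.

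Genes of protein quality control rose in most of their lists. Among small heat shock proteins and aggregate handling, 8 of 8 genes rose (median 2.01, 8 with the length offset, 8 without PSD1 replicates 1 and 2). HSP26 (YBR072W, chromosome II, 382030 to 382674), which binds misfolded protein in oligomers, read 131, 135, 156, 44.3 and 16.1 CPM in the empty libraries and 998 to 1415 (median 1203) in the PSD1 libraries (log2 3.90 ± 0.46, adjusted p = 8.28e-07). Empty replicates 4 and 5, both of series 6, were the lowest, and the groups did not overlap. BTN2, which sorts aggregates for storage, read 48.7, 77.2, 80.8, 90.6 and 87.8 CPM and 212 to 454 (median 373) (log2 2.23 ± 0.20, adjusted p = 4.18e-08). HSP42, a second small heat shock protein gene, rose by 1.89 ± 0.17 and the disaggregase gene HSP104 by 1.35 ± 0.17. HSP33, which is nearly identical to HSP32 and therefore uncertain, rose by 3.24 ± 0.25.

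The Hsp70 family did not move as one. Of the Hsp70 and Hsp110 chaperones, 6 of 9 genes rose and 3 fell (median 0.71, 6 and 3 with the length offset, 6 and 3 without PSD1 replicates 1 and 2). The inducible cytosolic forms rose most, SSA3 by 3.65 ± 0.35 and SSA4 by 2.36 ± 0.26. SSA3 read 48.5 to 107 CPM in the empty and 551 to 1479 (median 849) in the PSD1 libraries. SSA4 read 80.2 to 173 CPM in the empty and 331 to 933 (median 665) in the PSD1 libraries. SSA1 (YAL005C, chromosome I, 139503 to 141431), a major constitutive form, read 1898, 2238, 1798, 2222 and 1793 CPM in the empty and 7009, 5037, 7643, 6475, 6544 and 8299.6 in the PSD1 libraries (log2 1.77 ± 0.11, adjusted p = 5.63e-10). Its near copy SSA2, which shares reads with it, rose by 0.60 ± 0.12. The 3 members that fell were SSB1 (−0.83 ± 0.16), SSB2 (−0.54 ± 0.08) and SSZ1 (−0.27 ± 0.07). They belong to the chaperone system that acts on nascent chains at the ribosome, and so does the J protein gene ZUO1, which fell by 0.26 ± 0.09. The ZUO1 call was lost in 4 of 25 alternatives, among them those without PSD1 replicate 3 or 4 and without empty replicate 5.

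The Hsp90 genes and the partners of Hsp70 and Hsp90 did not all move one way. Of Hsp90 and its cochaperones, 10 of 14 genes rose and 2 fell (median 0.50, 9 and 2 with the length offset, 8 and 2 without PSD1 replicates 1 and 2). HSP82, the inducible Hsp90, read 703, 879.9, 799, 950.4 and 813 CPM in the empty libraries and 1898 to 3409 (median 2838) in the PSD1 libraries, with no overlap (log2 1.70 ± 0.14, adjusted p = 9.94e-09). The cochaperone genes STI1 (1.18 ± 0.09), which links Hsp70 to Hsp90, CPR6 (1.13 ± 0.13), a prolyl isomerase, and AHA1 (0.97 ± 0.09), an activator of the Hsp90 ATPase, rose, and the phosphatase gene PPT1 (−0.58 ± 0.09) fell. Of 13 J proteins and nucleotide exchange factors, 6 rose and 2 fell (median 0.11, 6 and 3 with the length offset, 6 and 2 without PSD1 replicates 1 and 2), led by FES1 (0.96 ± 0.08), SIS1 (0.94 ± 0.08) and APJ1 (0.74 ± 0.07). The TRiC chaperonin and prefoldin, which fold actin and tubulin, had 2 of 14 lower (median 0.00, 6 with the length offset, 2 without PSD1 replicates 1 and 2), CCT5 (−0.21 ± 0.05) and CCT7 (−0.19 ± 0.04).

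The sequences below show the elements that heat shock and general stress factors are known to bind, in promoters of 3 strongly raised genes. These promoters were chosen from windows that hold the elements. For BTN2 (chrVII:772098-772139, plus strand) the capitals mark the Hsf1 element GAANNTTC extended by 2 open bases and GAA, found overlapping on both strands. For HSP12 (chrVI:106809-107082, plus), a membrane-stabilising small heat shock protein gene, and HSP26 (chrII:381539-381720, plus) they mark the Msn2/Msn4 element AGGGG or its reverse complement.
BTN2: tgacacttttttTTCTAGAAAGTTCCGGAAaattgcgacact
HSP12: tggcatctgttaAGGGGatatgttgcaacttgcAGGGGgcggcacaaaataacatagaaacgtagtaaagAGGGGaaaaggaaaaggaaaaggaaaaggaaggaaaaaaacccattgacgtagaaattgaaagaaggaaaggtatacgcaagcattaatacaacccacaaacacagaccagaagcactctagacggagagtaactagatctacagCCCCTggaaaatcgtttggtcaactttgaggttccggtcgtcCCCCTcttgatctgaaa
HSP26: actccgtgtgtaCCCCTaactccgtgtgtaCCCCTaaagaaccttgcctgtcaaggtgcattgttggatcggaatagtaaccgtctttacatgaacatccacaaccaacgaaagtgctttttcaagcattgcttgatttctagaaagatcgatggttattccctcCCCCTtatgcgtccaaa
HSP12 held 5 such elements in its window and rose by 2.32 ± 0.27, with 348 to 801 CPM in the empty and 2058 to 3730.0 (median 2601) in the PSD1 libraries. Over all 5717 promoters AGGGG was found in 34.5%, in 62.1% of those of genes that rose at least 2 fold and in 26.0% of those of genes that fell. The long Hsf1 spelling was in 1.43% of all promoters and in 5.53% of those raised at least 2 fold. The shorter GAANNTTC, which it contains, was in 19.2% and 21.7%. The other order of the same 2 units, TTCNNGAA, was not counted on its own. The HSP26 stretch above holds that order in lower case, as ttctagaa. The Yap1 spelling TTACTAA was in 11.9% of all and 12.3% of those raised at least 2 fold, and the Gcn4 spelling TGACTC in 13.0% and 9.36%.

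**Figure D3:**
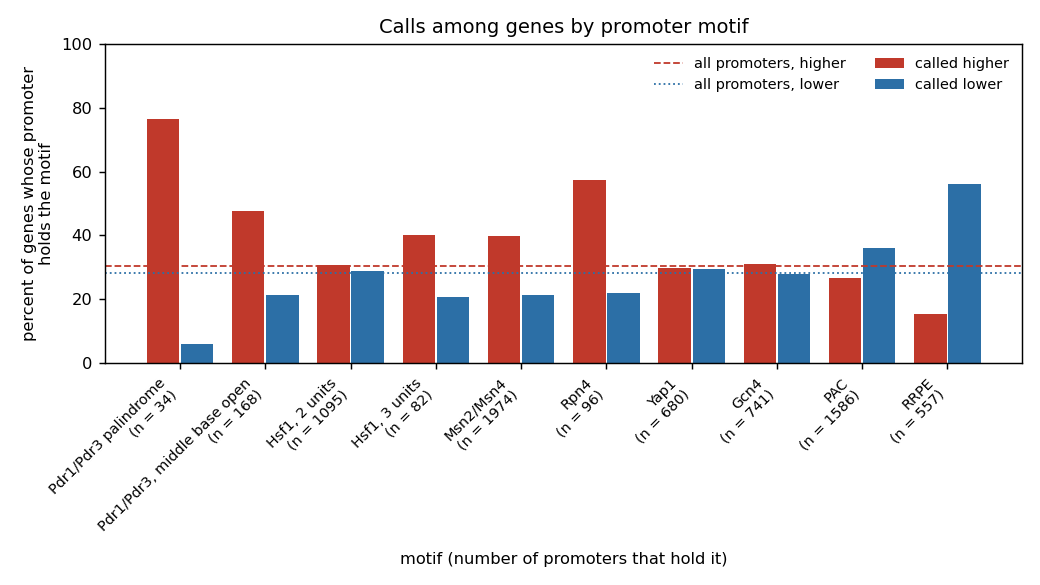
For each motif, the percent of genes whose 500-base promoter window holds it that were called higher (red) or lower (blue) with the PSD1 plasmid; the number of windows is under each name and the dashed and dotted lines give the same percents over all windows. Holders of the Pdr1/Pdr3 palindrome rose in 76.5% and of the Rpn4 element in 57.3%, and holders of the RRPE element fell in 56.0%.

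Genes of protein disposal rose too. Of 21 Cdc48 and ubiquitin factors, 15 rose and 2 fell (median 0.41, 16 rose with the length offset, 16 rose without PSD1 replicates 1 and 2). TMC1, an AN1-type zinc finger protein gene, read 129, 123, 146, 136 and 126 CPM in the empty and 289 to 349 (median 308) in the PSD1 libraries (log2 1.25 ± 0.09, adjusted p = 4.86e-09). The polyubiquitin gene UBI4 (1.05 ± 0.10) and the ubiquitin-conjugating enzyme gene UBC5 (0.88 ± 0.12) rose as well. Of 11 proteasome assembly factors, 8 rose (median 0.25, 7 rose and 2 fell with the length offset, 7 without PSD1 replicates 1 and 2), with NAS6 at 0.83 ± 0.09, UMP1 at 0.62 ± 0.08 (0.33 with the length offset) and RPN14 at 0.43 ± 0.05. The element GGTGGCAAA, to which Rpn4 binds, was found in 96 promoters (1.68%), of which 57.3% rose. In the promoter of TMC1 (chrXV:427455-427487, minus strand) it lies 251 bases before the start codon.
TMC1: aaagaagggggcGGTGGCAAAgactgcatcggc
The Rpn4 gene RPN4 itself read 139.6 to 169.9 CPM in the empty and 235 to 324 (median 293) in the PSD1 libraries, without overlap (adjusted p = 2.08e-06).

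Most autophagy genes rose, most ribosome quality control genes fell, and the ER list was near the share of all genes that fell. Of 27 autophagy genes, 21 rose (median 0.44, 21 with the length offset, 23 without PSD1 replicates 1 and 2). ATG40, a receptor for ER autophagy, read 14.9 to 19.4 CPM in the empty and 36.8 to 59.6 (median 46.1) in the PSD1 libraries (log2 1.52 ± 0.11, adjusted p = 4.06e-09). ATG34, a selective receptor, rose by 1.12 ± 0.15, and ATG8, the ubiquitin-like membrane protein gene, by 1.05 ± 0.12. In ribosome quality control, 5 of 7 genes fell (median −0.31, 1 rose and 3 fell with the length offset, 3 without PSD1 replicates 1 and 2), led by the ubiquitin ligase genes HEL2 (−0.45 ± 0.06) and RKR1 (−0.35 ± 0.09). The genes of this list are long, with a median of 2172 coding bases. RKR1 was at −0.04 with the length offset (adjusted p = 0.417) and RQC1 moved from −0.33 to −0.19. Among 16 genes of ER translocation and folding, 4 fell (median −0.10, 9 with the length offset, 4 without PSD1 replicates 1 and 2), beside 26.9% lower over all genes, with SEC63, a translocon subunit gene, at −0.46 ± 0.08. LHS1, an ER Hsp70 gene, was at −0.57 ± 0.16, or −0.36 without empty replicate 3, where it read 227 CPM against 109 to 133 in the other empty libraries.

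**Figure D4:**
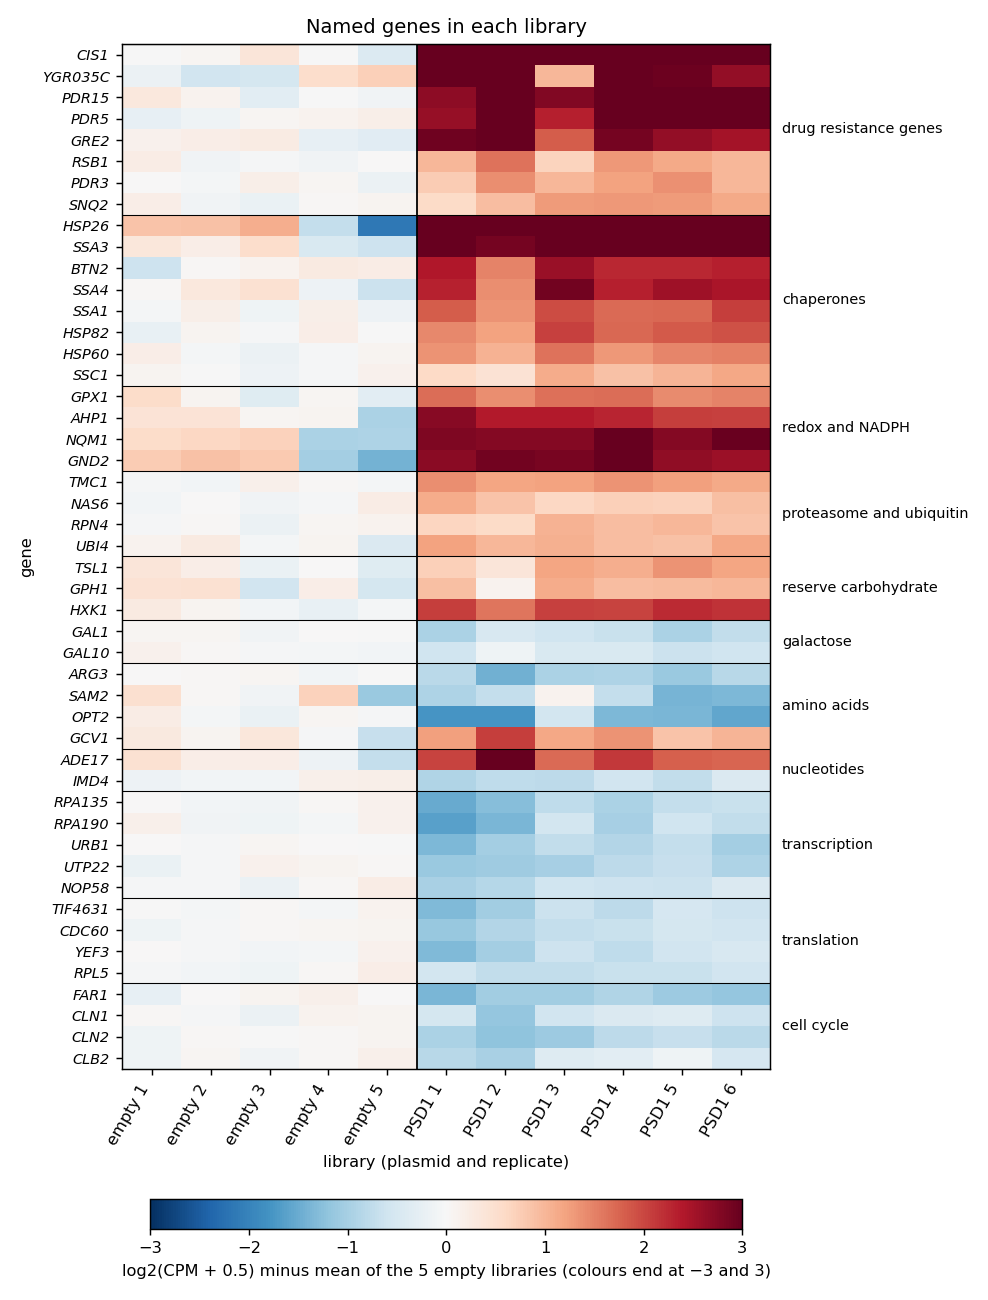
Log2 CPM (with 0.5 added) of 48 named genes in each of the 11 libraries, minus the mean of the 5 empty libraries, grouped by role. Red is higher and blue lower; rows of chaperones, redox and drug-resistance genes are mostly red in the 6 PSD1 libraries, and those of transcription, translation and the cell cycle blue.

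Redox enzymes and part of the NADPH-making pentose phosphate pathway rose. Among thiol redox and antioxidant enzymes, 23 of 32 genes rose and 2 fell (median 0.60, 16 and 5 with the length offset, 20 and 1 without PSD1 replicates 1 and 2). Its genes are short (median 630.0 coding bases). AHP1 (YLR109W, chromosome XII, 368781 to 369311), a thioredoxin-dependent peroxidase, read 754, 757, 596, 600.3 and 296 CPM in the empty and 3763, 2983, 2968, 2786, 2385 and 2383 in the PSD1 libraries. Every PSD1 library was at least 3 times the highest empty library, and the log2 fold change of 2.32 ± 0.17 (adjusted p = 4.06e-09) was 2.05 with the length offset. The glutathione peroxidase gene GPX1 rose by 1.57 ± 0.22 and the peroxiredoxin gene TSA2 by 1.39 ± 0.17. Of 13 pentose phosphate pathway genes, 9 rose and 2 fell (median 0.38, 9 and 2 with the length offset, 9 and 2 without PSD1 replicates 1 and 2). The second-copy genes led, with NQM1 (transaldolase) at 2.83 ± 0.29, GND2 (6-phosphogluconate dehydrogenase) at 2.71 ± 0.32 and TKL2 (transketolase) at 2.09 ± 0.38. ZWF1, the first enzyme of the pathway, rose by 0.64 ± 0.07, while the main transketolase gene TKL1 (−0.46 ± 0.08) and RKI1 (−0.80 ± 0.13) fell.

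Reductases that use NADPH and act on carbonyls and xenobiotics rose as well. Of 18 NADPH-dependent reductases, 12 rose (median 0.37, 10 with the length offset, 12 without PSD1 replicates 1 and 2). GRE2, which reduces methylglyoxal, read 61.4, 64.8, 66.0, 47.0 and 44.4 CPM in the empty and 428, 555, 198, 411, 353 and 318 in the PSD1 libraries (log2 2.76 ± 0.22, adjusted p = 8.42e-09). BDH2 rose by 2.37 ± 0.19, ARI1 by 1.95 ± 0.21, GRE3, an aldose reductase gene, by 1.59 ± 0.18 and the old yellow enzyme gene OYE3 by 1.38 ± 0.38. In GRE2 and ARI1 (109, 149, 40.7, 101, 92.2 and 82.9 CPM) the PSD1 libraries kept the same extremes as in CIS1, with replicate 2 highest and replicate 3 lowest.

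Mitochondrial genes did not move as one compartment. The matrix chaperone genes HSP60 (1.38 ± 0.11) and SSC1 (0.87 ± 0.11), an Hsp70 that also pulls precursors inward, rose without overlap. HSP60 read 1924 to 2481 CPM in the empty and 4459 to 6702 (median 5722) in the PSD1 libraries. In cytochrome oxidase assembly, 17 of 18 genes rose and 1 fell (median 0.84, 16 and 1 with the length offset, 17 and 1 without PSD1 replicates 1 and 2). PET117 read 45.1, 33.0, 30.0, 32.3 and 41.9 CPM in the empty and 127, 102, 82.7, 85.8, 83.4 and 95.9 in the PSD1 libraries (log2 1.40 ± 0.13, adjusted p = 5.66e-08), and COX23 (1.26 ± 0.12) and COX14 (1.15 ± 0.13) rose too. The list is of short genes (median 537 coding bases), and its median was 0.57 with the length offset. The exception was COX19 (−0.47 ± 0.10), a copper-binding factor of the intermembrane space. In coenzyme Q synthesis, 10 of 11 genes rose (median 0.57, 9 with the length offset, 9 without PSD1 replicates 1 and 2), with the methyltransferase genes COQ3 (0.88 ± 0.07) and COQ5 (0.78 ± 0.09) in front. Of 13 mitochondrial aminoacyl-tRNA synthetases, 10 rose (median 0.36, 11 with the length offset, 10 without PSD1 replicates 1 and 2), led by MSF1 (0.82 ± 0.06) and DIA4 (0.59 ± 0.07). In iron-sulfur cluster assembly, 10 of 16 genes rose and 1 fell (median 0.19, 7 and 2 with the length offset, 8 and 1 without PSD1 replicates 1 and 2), with the J protein gene JAC1 at 0.80 ± 0.09 and ISA2 at 0.67 ± 0.08.

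In the other mitochondrial lists some genes rose and some fell, beside 29.7% higher and 26.9% lower over all genes. RPM2 (YML091C, chromosome XIII, 87123 to 90731), which encodes the protein subunit of mitochondrial RNase P, read 559.8, 577, 531, 527 and 583 CPM in the empty and 205, 169, 315, 285, 306 and 275 in the PSD1 libraries. The groups did not overlap, and RPM2 fell by 1.13 ± 0.13 (adjusted p = 6.83e-07). MIC60, the core subunit of the MICOS complex at crista junctions, fell by 0.72 ± 0.09, whereas MIC12 of the same complex rose by 0.83 ± 0.13 (0.53 with the length offset). In the MICOS list 3 rose and 2 fell of 6 (median 0.12, 1 and 3 with the length offset, 3 and 2 without PSD1 replicates 1 and 2). Among fusion and fission genes 3 rose and 3 fell of 10 (median 0.00, 4 and 1 with the length offset, 3 and 2 without PSD1 replicates 1 and 2), and among mitochondrial gene expression factors 8 rose and 5 fell of 20 (median 0.06, 9 and 3 with the length offset, 7 and 3 without PSD1 replicates 1 and 2). Of 14 genes of ERMES and mitochondrial lipid transfer, 7 rose and 5 fell (median 0.00, 5 and 4 with the length offset, 4 and 3 without PSD1 replicates 1 and 2). MDM35, which carries the Ups lipid transfer proteins in the intermembrane space, rose by 0.99 ± 0.11, while MDM32 (−0.61 ± 0.08) and UPS2 (−0.46 ± 0.15), a phosphatidylserine transfer protein gene, fell. The UPS2 call was lost without empty replicate 4 and without PSD1 replicates 1 and 2 together. Among 29 mitochondrial carriers, 6 rose and 8 fell (median 0.01, 6 and 13 with the length offset, 5 and 9 without PSD1 replicates 1 and 2), with the major ADP/ATP carrier gene PET9 at −0.67 ± 0.17 and its minor relative AAC1 at 0.72 ± 0.13. PIC2, a copper and phosphate carrier gene, rose by 0.76 ± 0.20. The rhomboid protease gene PCP1 rose by 0.54 ± 0.07. Of 8 heme synthesis genes, 2 rose and 2 fell (median 0.11, 1 and 2 with the length offset, 2 and 2 without PSD1 replicates 1 and 2), the falls being HEM1 (−0.41 ± 0.08) and HEM3 (−0.45 ± 0.06). ATP2, the beta subunit gene of the ATP synthase, read 4193, 3672, 3151, 3256 and 3427 CPM in the empty and 2108, 1767, 2683, 2089, 2139 and 2318 in the PSD1 libraries and fell without overlap, by 0.68 ± 0.13 (adjusted p = 0.000169).

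Genes around the reaction that Psd1 carries out passed in both directions, beside 29.7% higher and 26.9% lower over all genes. Of 11 genes of mitochondrial phospholipids and the CDP-DAG pathway, 2 rose and 2 fell (median −0.11, 1 and 2 with the length offset, 1 rose without PSD1 replicates 1 and 2). TAZ1, which remodels cardiolipin, rose by 0.64 ± 0.08. PSD2, the decarboxylase of the endosomal system that makes the same product as Psd1, fell by 0.36 ± 0.11, with 167, 146, 173, 144 and 124 CPM in the empty and 91.8, 105, 147, 115, 132 and 110.1 in the PSD1 libraries. PSD1 replicates 3 and 5 lay within the empty range, and the difference was −0.10 with the length offset (adjusted p = 0.0815) and −0.20 without PSD1 replicates 1 and 2 (adjusted p = 0.105). CDS1, the CDP-diacylglycerol synthase gene, was at −0.46 ± 0.17 (adjusted p = 0.0311), a call lost in 9 of 25 alternatives, and it was −0.29 without empty replicate 4. In the Kennedy pathway, which makes phosphatidylethanolamine and phosphatidylcholine from ethanolamine and choline, 1 of 7 genes rose and 3 fell (median −0.23, 1 and 4 with the length offset, 1 and 2 without PSD1 replicates 1 and 2). The choline permease gene HNM1 (−0.63 ± 0.16) and the phosphotransferase gene EPT1 (−0.43 ± 0.10) fell, and ECT1, which activates ethanolamine, rose by 0.25 ± 0.05 (0.11 with the length offset). ITR1, the inositol permease gene, was at −0.85 ± 0.35 (adjusted p = 0.0421), with 1298, 1202, 3521, 1583, 951 and 929 CPM in the PSD1 libraries, and this call was lost in 11 of 25 alternatives, with −0.48 without empty replicate 4.

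Lipid storage, ceramide and peroxisome genes rose in places, beside 29.7% higher and 26.9% lower over all genes. The ceramidase genes YDC1 (0.94 ± 0.08) and YPC1 (0.93 ± 0.08) rose, and in the list of sphingolipid synthesis and turnover 10 rose and 5 fell of 23 (median 0.05, 10 and 7 with the length offset, 8 and 4 without PSD1 replicates 1 and 2). PLN1, a protein of lipid droplets, read 394 to 487 CPM in the empty and 761 to 995 (median 863) in the PSD1 libraries and rose by 0.98 ± 0.09, and ARE2, a sterol acyltransferase gene, rose by 0.69 ± 0.11. Of 20 peroxins, 12 rose (median 0.28, 11 with the length offset, 12 without PSD1 replicates 1 and 2), with the division factor gene PEX11 at 0.75 ± 0.09 and the import coreceptor gene PEX18 at 0.85 ± 0.10. In peroxisomal beta-oxidation 6 of 11 rose (median 0.55, 5 with the length offset, 7 without PSD1 replicates 1 and 2), with the thiolase gene POT1 at 1.08 ± 0.24. In neutral lipid storage 6 rose and 2 fell of 15 (median 0.08, 8 and 3 with the length offset, 5 and 2 without PSD1 replicates 1 and 2). In fatty acid synthesis and elongation 4 rose and 2 fell of 13 (median −0.08, 4 and 5 with the length offset, 4 and 3 without PSD1 replicates 1 and 2), a share of rises near that of all genes. ELO3, which elongates very long chain fatty acids, fell by 0.74 ± 0.06 and read 196 to 247 CPM against 346 to 411.

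Genes of carbon reserves and some glucose-repressed genes rose. Of 19 trehalose and glycogen genes, 12 rose (median 0.54, 15 with the length offset, 15 without PSD1 replicates 1 and 2). TPS1, trehalose phosphate synthase, read 291 to 409 CPM in the empty and 572 to 780.3 (median 739.7) in the PSD1 libraries and rose by 0.97 ± 0.12. TSL1, a regulatory subunit of the same complex, rose by 0.97 ± 0.18 and GPH1, glycogen phosphorylase, by 0.80 ± 0.23. Neither of these passed in series 5 alone, where TSL1 was at 0.62. HXK1, a hexokinase gene held down in glucose, read 475, 414, 372, 338 and 374 CPM in the empty and 1648, 1196, 1617, 1589, 1853 and 1777 in the PSD1 libraries (log2 2.03 ± 0.11, adjusted p = 1.02e-10). The lowest PSD1 library was replicate 2, and the groups did not overlap. MIG2, a repressor gene whose promoter holds the Pdr1/Pdr3 element, rose by 1.38 ± 0.15. The hexose transporter genes HXT5 (1.82 ± 0.34) and HXT7 (1.17 ± 0.26, uncertain because of its near copy HXT6) rose, in a list of hexose uptake and phosphorylation in which 8 rose and 1 fell of 15 (median 0.44, 9 and 1 with the length offset, 9 and 1 without PSD1 replicates 1 and 2). HXT5 was at 1.06 within series 5 and 2.93 within series 6. ALD3, a stress-induced aldehyde dehydrogenase gene, was at 1.32 ± 0.38 overall and 0.39 and 2.98 within the series, and it did not pass in series 5 alone. The test of the difference between the series did not pass for HXT5 (adjusted p = 0.744) or ALD3 (adjusted p = 0.0873). In the list of ethanol, acetate and pyruvate 6 rose and 2 fell of 20 (median 0.25, 6 and 2 with the length offset, 8 and 2 without PSD1 replicates 1 and 2), and in glycerol metabolism 3 rose and 2 fell of 11 (median −0.04, 3 and 2 with the length offset, 3 and 1 without PSD1 replicates 1 and 2), with shares of rises near that of all genes. GPP2, which makes glycerol, rose by 1.35 ± 0.18, while the glycerol importer gene STL1 was at −0.62 ± 0.21, a call lost without empty replicate 1 or 5 and without PSD1 replicates 1 and 2 together.

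Genes of arginine, branched-chain and aromatic amino acids and of permeases mostly fell, beside 29.7% higher and 26.9% lower over all genes. The shares of falls in the methionine and nitrogen lists below were near that of all genes. In arginine metabolism, 2 of 11 genes rose and 8 fell (median −0.52, 1 and 7 with the length offset, 7 fell without PSD1 replicates 1 and 2). ARG3 (YJL088W, chromosome X, 268799 to 269815), ornithine carbamoyltransferase, read 290.2, 296, 302, 273 and 285 CPM in the empty and 165, 106, 149.8, 151, 133 and 161 in the PSD1 libraries (from 289 ± 11.2 to 144 ± 21.9 CPM, mean ± SD, adjusted p = 2.69e-07). No library overlapped, and replicate 2 was lowest. ARG56, which makes ornithine precursors, fell by 0.90 ± 0.14, and CAR2, which breaks arginine down, rose by 0.58 ± 0.18. Among branched-chain genes 1 rose and 7 fell of 11 (median −0.35, 1 and 7 with the length offset, 1 and 6 without PSD1 replicates 1 and 2), with LEU9 at −0.88 ± 0.10 and ILV3 at −0.54 ± 0.07. For aromatic amino acids 1 rose and 10 fell of 14 (median −0.30, 1 and 10 with the length offset, 11 fell without PSD1 replicates 1 and 2), with ARO4 at −0.68 ± 0.07 and ARO1 at −0.64 ± 0.14 (−0.34 with the length offset). In methionine and sulfur metabolism 1 rose and 6 fell of 22 (median −0.24, 1 and 5 with the length offset, 1 and 2 without PSD1 replicates 1 and 2), in lysine synthesis 4 rose and 3 fell of 8 (median 0.12, 3 and 1 with the length offset, 3 and 3 without PSD1 replicates 1 and 2), and among genes of nitrogen catabolite repression 4 rose and 5 fell of 20 (median 0.09, 7 and 4 with the length offset, 6 and 3 without PSD1 replicates 1 and 2). Of 21 amino acid and peptide permeases, 1 rose and 11 fell (median −0.26, 2 and 10 with the length offset, 2 and 9 without PSD1 replicates 1 and 2). OPT2, an oligopeptide transporter gene, fell most, by 1.34 ± 0.18, with 265, 218, 198, 234 and 220.4 CPM in the empty and 65.7, 65.7, 154, 88.5, 87.8 and 76.7 in the PSD1 libraries. PTR2 (−0.89 ± 0.25) and the glutamine permease gene GNP1 (−0.58 ± 0.09) fell too. SAM2, S-adenosylmethionine synthetase, was at −0.86 ± 0.28, but its groups overlapped, the value was −0.45 without empty replicate 4, and the call was lost there and without PSD1 replicates 1 and 2 (adjusted p = 0.0739).

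Genes of proline breakdown and glycine cleavage rose. PUT1, proline oxidase of the mitochondrion, read 145, 121, 124, 128 and 115 CPM in the empty and 386, 495, 384, 409.5, 421 and 444 in the PSD1 libraries (log2 1.75 ± 0.11, adjusted p = 4.45e-10), and PUT2, the next enzyme of proline breakdown, rose by 0.64 ± 0.07. In the proline list as a whole 2 rose and 1 fell of 7 (median 0.13, 3 and 2 with the length offset, 2 and 2 without PSD1 replicates 1 and 2). That share of rises was near the 29.7% of all genes, of which 26.9% fell. Among 10 genes of one-carbon metabolism and glycine cleavage, 5 rose and 1 fell (median 0.35, 6 and 1 with the length offset, 5 and 1 without PSD1 replicates 1 and 2). The glycine cleavage genes GCV1 (1.37 ± 0.17), GCV2 (0.95 ± 0.19) and GCV3 (1.17 ± 0.16) rose, and MIS1, the mitochondrial folate enzyme gene, fell by 0.96 ± 0.08, with 302 to 342 CPM in the empty and 137 to 189 (median 171) in the PSD1 libraries. ADE17, which performs the last steps of purine synthesis, read 65.9, 55.3, 54.7, 43.2 and 29.1 CPM in the empty and 196, 521, 158, 209, 168 and 163 in the PSD1 libraries (log2 2.31 ± 0.25, adjusted p = 3.37e-07), with replicate 2 far above the rest. ADE1 rose by 1.03 ± 0.15, while IMD4 (−0.71 ± 0.11, one of a set of near copies and so uncertain) on the guanine branch fell. Of 12 purine genes, 5 rose and 3 fell (median 0.21, 7 and 3 with the length offset, 6 and 3 without PSD1 replicates 1 and 2). URA7, CTP synthase, fell by 0.85 ± 0.09. In pyrimidine synthesis 1 rose and 2 fell of 8 (median 0.03, 2 and 3 with the length offset, 1 and 2 without PSD1 replicates 1 and 2). PNC1, a nicotinamidase induced by stress, rose by 1.16 ± 0.13, and in NAD synthesis 5 rose and 3 fell of 14 (median 0.00, 4 and 5 with the length offset, 3 and 2 without PSD1 replicates 1 and 2). Of the thiamine list, 8 of 13 genes rose and 1 fell (median 0.34, 8 and 1 with the length offset, 7 and 1 without PSD1 replicates 1 and 2). Its THI5 family members are near copies and uncertain, while THI4, a single-copy gene of the list, rose by 1.11 ± 0.19.

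In the fit as reported, metal genes gave few calls beside the 56.6% of all genes tested that passed. Of 10 copper genes 2 rose (median 0.24, 1 rose and 1 fell with the length offset, 2 without PSD1 replicates 1 and 2), among them CRS5, a copper metallothionein gene (1.15 ± 0.19). Of 11 zinc genes, 2 rose and 2 fell (median −0.25, 1 and 1 with the length offset, 2 and 5 without PSD1 replicates 1 and 2). The zinc regulator gene ZAP1 was at −0.71 ± 0.25, with 301, 282, 249, 199.6 and 75.4 CPM in the empty and 171, 183, 198, 95.8, 82.0 and 53.7 in the PSD1 libraries, and its call was lost in 4 of 25 alternatives, among them those without empty replicate 4 and with the length offset. Its targets ZRT1, ADH4 and ZPS1 did not pass (adjusted p = 0.203, 0.111 and 0.141). ZPS1 read 15.3 to 832 CPM over the empty and 14.4 to 708 over the PSD1 libraries, so the ranges over both series overlapped almost fully. In series 5 alone ZPS1, ZRT1 and ADH4 were at −0.27, −0.15 and −0.45, and in series 6 alone at −3.06, −1.76 and −1.17. Without empty replicate 4, which is of series 6, ZPS1 was at −0.36 and ZRT1 at −0.29. The test of the difference between the series did not pass for ZPS1 or ADH4 (adjusted p = 0.744 for each).

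Genes of ribosomal RNA synthesis and processing mostly fell. In RNA polymerase I, which makes ribosomal RNA, 6 of 8 genes fell (median −0.51, 7 with the length offset, 7 without PSD1 replicates 1 and 2). RPA135 (YPR010C, chromosome XVI, 577585 to 581196), its second largest subunit, read 404, 376, 371, 412 and 436 CPM in the empty and 139, 166, 236, 207, 242 and 250.2 in the PSD1 libraries (log2 −0.98 ± 0.12, adjusted p = 1.99e-06). The largest subunit gene RPA190 read 375 to 449 CPM in the empty and 131 to 276 (median 224) in the PSD1 libraries and fell by 0.96 ± 0.15. In both, PSD1 replicates 1 and 2 were the lowest, and the falls were −0.72 and −0.67 with the length offset. In RNA polymerase III, 6 of 10 genes fell (median −0.32, 10 with the length offset, 6 without PSD1 replicates 1 and 2), with RPC82 at −0.71 ± 0.08 and RET1 at −0.67 ± 0.11. In RNA polymerase II, which makes mRNA, 2 of 7 genes rose and 1 fell (median −0.06, 1 and 4 with the length offset, 1 fell without PSD1 replicates 1 and 2), beside 29.7% higher and 26.9% lower over all genes. Of the 8 snoRNP core proteins, 7 fell (median −0.53, 8 with the length offset, 8 without PSD1 replicates 1 and 2), with NOP58 at −0.69 ± 0.09 and NOP56 at −0.65 ± 0.08. The 60S and 40S assembly genes URB1 (−0.95 ± 0.13, −0.63 with the length offset) and UTP22 (−0.95 ± 0.11) also fell. PPM2, a tRNA modification enzyme gene (−1.10 ± 0.26), CMR1, a chromatin-associated DNA damage protein gene (−0.98 ± 0.25), and the sporulation gene SPS4 (−0.96 ± 0.14) were further steep falls. PPM2 read 18.4 ± 0.85 CPM (mean ± SD) in the empty and 8.99 ± 3.64 in the PSD1 libraries, and CMR1 read 33.3 ± 1.51 and 17.3 ± 7.54. PPM2, CMR1 and SPS4 were not among the 186 named genes checked in the alternatives, and further unchecked genes are listed in the closing section.

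The promoters of both large polymerase I subunits carry the RRPE and PAC elements known from ribosome biogenesis genes, and they are shown for that reason. Capitals mark AAAAATTTT (RRPE) or GATGAG (PAC) and their reverse complements, where RRPE can overlap its own reverse complement. The stretches are chrXVI:581283-581344 (minus strand) and chrXV:960752-960837 (plus).
RPA135: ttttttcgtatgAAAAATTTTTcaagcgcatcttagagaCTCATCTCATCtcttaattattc
RPA190: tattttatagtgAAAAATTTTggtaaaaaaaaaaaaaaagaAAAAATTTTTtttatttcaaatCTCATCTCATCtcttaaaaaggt
AAAAATTTT was found in 557 of the 5717 promoter windows (9.74%). It was in 19.3% of those of genes that fell and in 2.13% of those of genes that rose at least 2 fold. Of its holders 56.0% fell, beside 26.9% of all genes tested and 1615 of the 5717 genes with a window. GATGAG was in 27.7% of all windows and in 35.4% of those of genes that fell.

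Most translation factor genes fell. Of 18 cytosolic aminoacyl-tRNA synthetases, 17 fell (median −0.43, 16 with the length offset, 17 without PSD1 replicates 1 and 2), with the leucyl enzyme gene CDC60 at −0.76 ± 0.10 and the methionyl enzyme gene MES1 at −0.68 ± 0.11. Of the 26 translation initiation factors, 22 fell (median −0.35, 26 with the length offset, 22 without PSD1 replicates 1 and 2). TIF4631, the eIF4G scaffold, read 563, 544, 578, 548 and 609 CPM in the empty and 227, 275, 365, 331, 399 and 368 in the PSD1 libraries (log2 −0.82 ± 0.12, adjusted p = 9.96e-06). The eIF3 genes NIP1 (−0.76 ± 0.12) and RPG1 (−0.59 ± 0.07) fell with it. In elongation and termination 1 rose and 8 fell of 12 (median −0.39, 2 and 8 with the length offset, 2 and 6 without PSD1 replicates 1 and 2), with the elongation factor genes YEF3 (−0.79 ± 0.13) and EFT2 (−0.65 ± 0.09, which shares reads with EFT1). YEF3 read 3434 to 3950.4 CPM in the empty and 1434 to 2576 (median 2254) in the PSD1 libraries. RPL5, a ribosomal protein gene, fell by 0.67 ± 0.08. Of 28 tRNA modification genes, 19 fell (median −0.36, 21 with the length offset, 18 without PSD1 replicates 1 and 2), with the methylase gene TRM3 at −0.71 ± 0.10 (−0.42 with the length offset). In mRNA decay 1 rose and 9 fell of 15 (median −0.21, 2 and 8 with the length offset, 1 and 6 without PSD1 replicates 1 and 2), with the helicase gene DHH1 at −0.55 ± 0.10 and CDC36 of the Ccr4-Not complex at 0.44 ± 0.09, or 0.19 with the length offset.

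**Figure D5:**
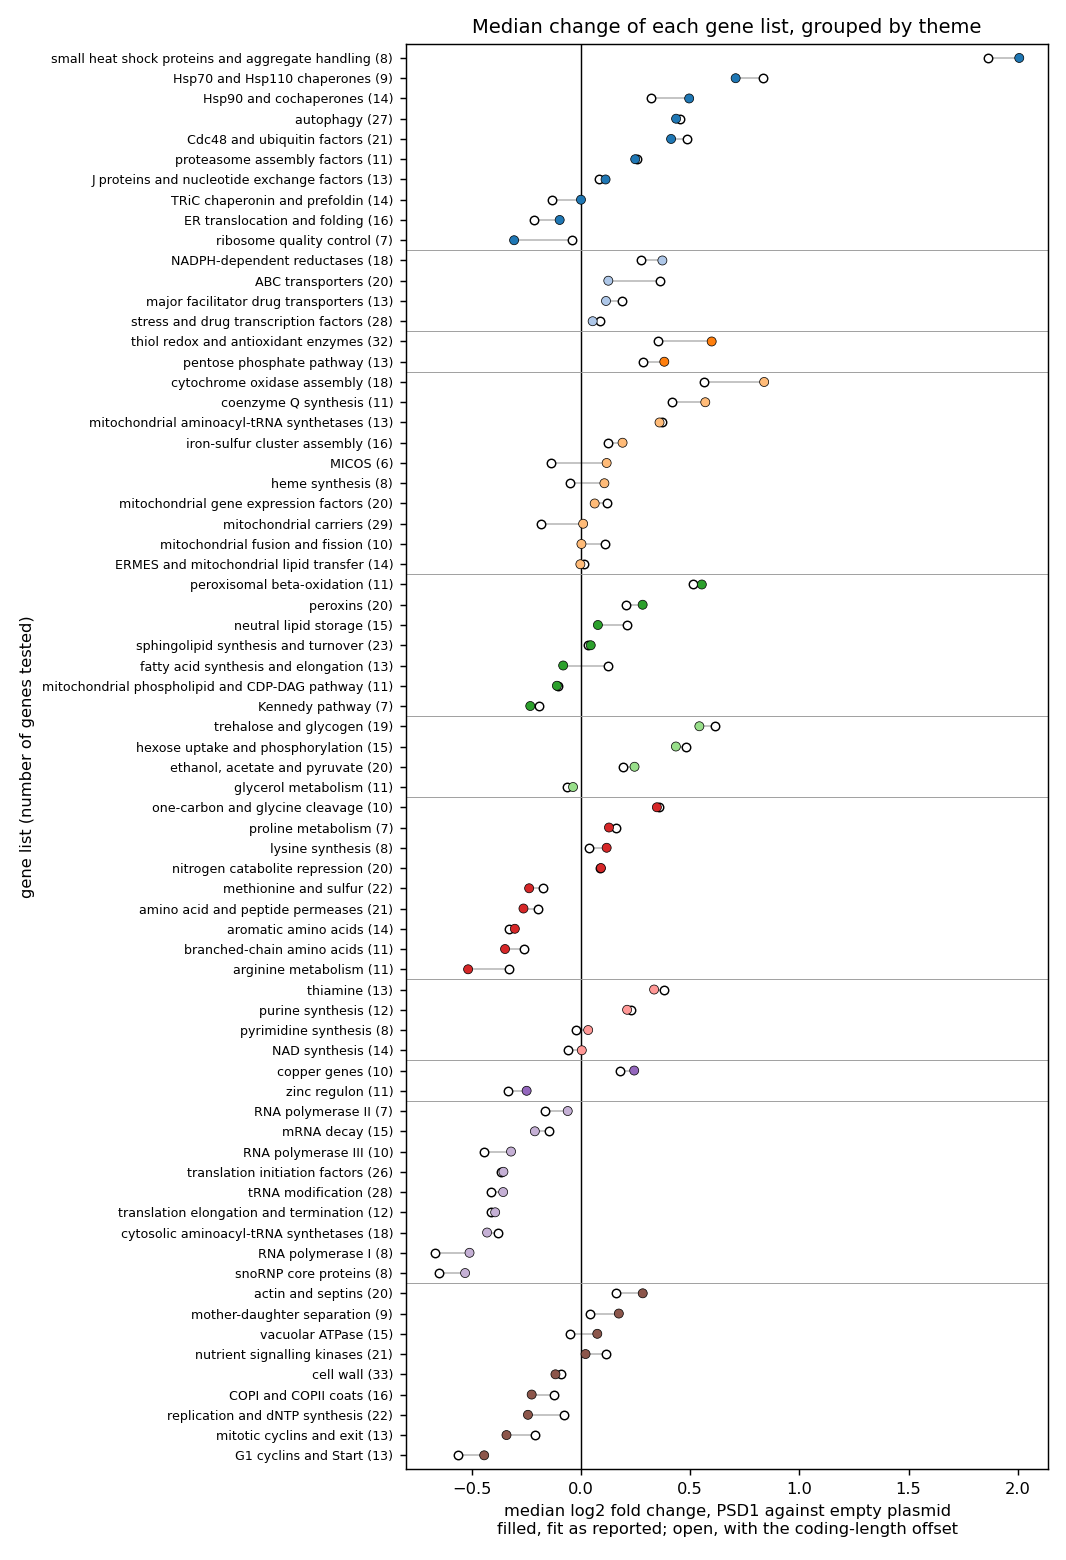
Median log2 fold change of each of the 70 gene lists, grouped by theme, as reported (filled) and with the length offset (open), with the number of genes tested in brackets. Small heat shock proteins stand highest at 2.01 and snoRNP core proteins lowest at −0.53.

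Cell cycle genes fell around the G1 decision point called Start. Of 13 genes of G1 cyclins and Start, 1 rose and 11 fell (median −0.44, 1 and 11 with the length offset, 1 and 10 without PSD1 replicates 1 and 2). FAR1 (YJL157C, chromosome X, 123836 to 126328), which inhibits the cyclin kinase in the pheromone response, read 547, 657, 681, 716 and 654 CPM in the empty and 249, 313, 314, 349, 304 and 289 in the PSD1 libraries (log2 −1.11 ± 0.10, adjusted p = 2.44e-08). The G1 cyclin genes CLN2 (−0.94 ± 0.07) and CLN1 (−0.62 ± 0.11) fell with no overlap. SIC1, an inhibitor of the S phase kinase that holds cells in G1, rose by 0.37 ± 0.08. Of 13 mitotic cyclin and exit genes, 9 fell (median −0.34, 8 with the length offset, 1 rose and 8 fell without PSD1 replicates 1 and 2), with the cyclin gene CLB2 at −0.53 ± 0.12. In replication and dNTP synthesis, 4 of 22 genes rose and 15 fell (median −0.24, 2 and 7 with the length offset, 2 and 10 without PSD1 replicates 1 and 2). This is a list of long genes (median 2298 coding bases). RNR1, the ribonucleotide reductase subunit gene of S phase, fell by 0.91 ± 0.09 and was at −0.71 with the length offset, and POL1 went from −0.76 to −0.46. HO, the mating-type switching endonuclease gene, fell by 0.97 ± 0.17. In mother-daughter separation 1 rose and 2 fell of 9 (median 0.17, 1 rose with the length offset, 1 fell without PSD1 replicates 1 and 2), beside 29.7% higher and 26.9% lower over all genes.

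Genes of cell structure passed in both directions, beside 29.7% higher and 26.9% lower over all genes. Of 20 actin and septin genes, 14 rose and 3 fell (median 0.28, 10 and 2 with the length offset, 13 and 3 without PSD1 replicates 1 and 2). The Arp2/3 subunit genes ARC15 (0.53 ± 0.08) and ARC19 (0.50 ± 0.06) rose, and with the length offset they were at 0.24 and 0.23. The septin genes CDC3 (−0.30 ± 0.06) and CDC12 (−0.29 ± 0.05) fell. In the cell wall list 7 rose and 12 fell of 33 (median −0.12, 7 and 11 with the length offset, 7 and 9 without PSD1 replicates 1 and 2), and the rises included YGP1 (1.96 ± 0.13), PIR3 (1.72 ± 0.32) and PST1 (1.27 ± 0.14), which encode secreted or wall proteins. PIR3 was at 1.10 in series 5 alone, where it did not pass (adjusted p = 0.0748), and at 2.59 in series 6 alone. YGP1 read 252 to 428 CPM in the empty and 1219 to 1556 (median 1379) in the PSD1 libraries. In the COPI and COPII coats, 11 of 16 genes fell (median −0.22, 8 with the length offset, 4 without PSD1 replicates 1 and 2). COP1 was at −0.46 ± 0.09, or −0.19 with the length offset, in a list with a median of 2650.5 coding bases. In the vacuolar ATPase, 5 of 15 genes rose and 2 fell (median 0.08, 2 and 4 with the length offset, 1 rose without PSD1 replicates 1 and 2), and VMA4 (0.27 ± 0.08) did not pass with the length offset (adjusted p = 0.31). Of 21 nutrient signalling kinases, 6 rose and 5 fell (median 0.02, 9 and 2 with the length offset, 6 and 5 without PSD1 replicates 1 and 2), with the TOR subunit gene LST8 at 0.93 ± 0.07. The kinase shares were near those of all genes.

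Some of the steepest rises lay outside the lists and had a low baseline in the empty libraries of series 6. SIP18, a desiccation protein gene, read 28.9, 25.6, 26.5, 4.43 and 2.64 CPM in the empty and 114, 121, 85.5, 129, 63.4 and 55.4 in the PSD1 libraries (log2 2.72 ± 0.44). PAI3, an inhibitor of the vacuolar protease A, rose by 2.65 ± 0.29 and FMP16 by 2.51 ± 0.34. HSP30, a plasma membrane protein gene, read 18.9 to 73.1 CPM in the empty and 127 to 271 (median 168) in the PSD1 libraries and rose 5.65 fold. In SIP18, PAI3 and FMP16 empty replicates 4 and 5, those of series 6, were the lowest. Within series 6 SIP18 was at 4.60 and FMP16 at 3.84, and the test of the difference between the series did not pass for either (adjusted p = 0.343 and 0.367). Among the steep falls were YRF1-3 (−1.01 ± 0.36) and YRF1-7, subtelomeric helicase genes that are near copies and so uncertain, and both calls were lost without PSD1 replicates 1 and 2 (YRF1-3 −0.49, adjusted p = 0.113, YRF1-7 −0.48, adjusted p = 0.141).

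Where the response differs from that to the tagged protein was tested directly. Against the V5-PSD1 plasmid, 1277 genes were higher (20.3%) and 1264 lower (20.1%), 40.5% in all, with untagged PSD1, while PSD1 mRNA was lower (−0.69 ± 0.26, adjusted p = 0.0383). CIS1 (5.98 ± 0.46), PDR5 (3.30 ± 0.16), PDR15 (3.07 ± 0.21), PDR3 (1.20 ± 0.11) and GRE2 (2.61 ± 0.22) were higher with the untagged form. Some chaperone genes did not pass this test, as SSA1 (0.22 ± 0.11, adjusted p = 0.113), BTN2 (−0.18 ± 0.19, adjusted p = 0.462) and SSA4 (0.37 ± 0.24, adjusted p = 0.239). SSA2 was lower with the untagged form (−0.37 ± 0.12), whereas HSP26 (2.35 ± 0.42) and SSA3 (2.54 ± 0.33) were higher. PUT1 (1.95 ± 0.11), NQM1 (2.38 ± 0.28) and ADE17 (1.88 ± 0.24) were higher and ARG3 (−1.63 ± 0.11) lower. RPA135 (−0.78 ± 0.12), TIF4631 (−0.64 ± 0.12) and CLN2 (−0.52 ± 0.07) were lower with untagged PSD1, while FAR1 (−0.23 ± 0.10, adjusted p = 0.0676) did not pass. The length contrast of the V5-PSD1 libraries was −0.07 to 0.52, and with the length offset 1316 genes were higher and 1383 lower.

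Between the library series few genes passed the test of a difference in the response. In the test of the PSD1 effect in series 6 minus that in series 5, 3 of 6278 genes passed (0.0478%), HBT1, TKL2 and YCL048W-A, each with a larger effect in series 6. No gene passed in the other direction with edgeR, DESeq2 or limma, with 183, 155 and 121 at an unadjusted p under 0.05. The Spearman correlation of coding length with the difference between the series was 0.60 over 5596 genes, and PSD1 replicates 1 and 2, with the steepest length gradient, are both of series 5. With the length offset 4 genes were higher and 0 lower, with 54 lower at an unadjusted p under 0.05. TKL2 read 144, 179, 141, 38.7 and 24.3 CPM in empty replicates 1 to 5, of which the last 2 are of series 6, and 325, 278, 408, 497, 461 and 453 in PSD1 replicates 1 to 6, of which the last 3 are. Its effect was 1.08 in series 5 and 3.92 in series 6. HBT1 was at 0.38 and 2.44 and YCL048W-A at 1.09 and 4.04. Without PSD1 replicates 1 and 2, or without empty replicate 5, edgeR called 0 genes higher, with 94 and 61 at an unadjusted p under 0.05.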

How the data were processed

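Polyadenylated RNA of 22 yeast libraries was sequenced, and the authors deposited a table of expected counts and a table of log2 FPKM values per locus (7126 loci, of which 6048 matched the R64 annotation). Per the submitters' processing notes the tools were STAR 2.5.3a, RSEM 1.3.0 and SAMtools 1.3 with the genome sacCer3. The strand setting is not given in the sources used here, and 2 of the count columns carry another replicate number than the sample labels and were assigned by library number. The expected counts deposited by the authors are whole numbers and were used as they stand. The log2 FPKM values deposited by the authors served in an alternative alone.

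Genes were tested with edgeR 4.0.16 in R 4.3.3 (quasi-likelihood test, trimmed mean of M values, filter by group), in 1 model of all 22 libraries with 4 group terms and the library series as covariate. The series is the first digit of the library number, 5 or 6. The Benjamini-Hochberg adjustment ran over 6278 genes, with calls at 0.05. In the alternatives DESeq2 1.42.0 and limma 3.58.1 (on the log2 FPKM table) were used. Promoter windows of 500 bases were read from the R64 genome. Tables were made in Python 3.11.15 with pandas 2.3.3 and numpy 2.4.6.

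Genes were named from those that meet this rule, and not all of those are printed: PSD1, PDR3, CIS1, MSP1, PDR1 and PDR5; the 15 largest rises and falls among annotated genes other than those of transposons, without overlap, the same in both series and with at least 5 CPM; up to 3 members of each list with the largest change that passed; the 10 largest rises and falls in CPM; and up to 5 genes a direction in each other contrast. A few further members were named after their values were seen. The members of the lists, the lists themselves and the comparison were chosen with earlier results of these data known. Libraries held 8152941 to 16920928 counts, so values near 1 CPM rest on few counts.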

Additional observations from a re-analysis of the deposited data

Results flagged for a closer look

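Single libraries stood apart from the rest of their group in 30 of 372 groups screened (186 genes in the empty and in the PSD1 group) by Dixon's criterion, and chance alone flags about 1 in 20 groups. PSD1 replicate 2 was farthest in 9 genes. It read 119.8 CPM for CIS1 beside 13.7 to 53.2 in the other PSD1 libraries, 521 for ADE17 beside 158 to 209, 299 for ADE1 beside 144 to 169, 247 for GCV1 beside 106 to 149, 9280.4 for GAL10 beside 6418 to 7358 and 38.5 for YHR140W beside 12.6 to 18.5. It was low at 196 CPM for ELO3 beside 238 to 247, at 572 for TPS1 beside 728 to 780.3 and at 318 for GPH1 beside 551 to 641. PSD1 replicate 3, the library with most PSD1 mRNA, was low for BDH2 (205 CPM beside 294 to 328) and YPC1 (48.9 beside 61.7 to 65.9). It was high for POT1 (72.0 beside 42.1 to 53.2), SAM2 (1261 beside 448 to 724), OPT2 (154 beside 65.7 to 88.5) and ITR1 (3521 beside 929 to 1583). PSD1 replicate 1 was high for MIC12 (207 CPM beside 171 to 183), PCP1 (173 beside 136 to 149), PNC1 (1093 beside 697 to 842) and URA3 (17302 beside 8836 to 10393), whose reads may include those of a plasmid marker, which the labels do not name.

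In the empty group, replicate 1 was low for SSA2 (1773 CPM beside 2674 to 2942), SIS1 (462 beside 581 to 618), APJ1 (51.6 beside 55.3 to 56.8) and the chaperone share of counts (2.15% beside 2.34% to 2.40%). Replicate 3 was high for LHS1 (227 CPM beside 109 to 133), ARE2 (192 beside 129 to 145), COP1 (585 beside 511 to 532) and HSP30 (73.1 beside 18.9 to 30.0), and low for COQ3 (42.6 beside 44.8 to 45.2). Replicate 5 was low for RPN14 (57.9 CPM beside 62.3 to 63.7) and high for PCP1 (117 beside 96.6 to 102) and ARO4 (378 beside 310.1 to 327).

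The PSD1 effect differed between the library series by the interaction test in 3 genes, by 2.02 for HBT1, 2.79 for TKL2 and 2.91 for YCL048W-A on the log2 scale, series 6 minus series 5. The part of the empty libraries, of which replicates 4 and 5 were the lowest for TKL2, in that difference was not tested.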

How the results depend on the processing

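The 1863 higher and 1689 lower genes became 1041 and 1000 with series 5 alone. A fit of the 11 libraries alone gave 1643 and 1588, and there the calls of CDS1, YRF1-3, YRF1-7 and ITR1 were lost. With DESeq2 both counts were 1821, with RLE size factors 1788 and 1783, and with PSD1 left out of the library sizes 1758 and 1822, so the balance of higher and lower calls depends on the scaling. The 291 genes higher by at least 2 fold were 189 with the length offset. The 42 lower by at least 2 fold were 67 with limma, 20 among reference loci alone, 26 with the length offset and 19 without PSD1 replicates 1 and 2 together. Leaving out each library in turn gave 1735 to 1917 higher, 1552 to 1761 lower, 273 to 320 higher by at least 2 fold and 30 to 80 lower by at least 2 fold. The same gave 1068 to 1380 higher and 1064 to 1330 lower against V5-PSD1. Against the PDR3 deletion it gave 19 to 28 higher and 0 to 6 lower.

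For the 1 gene lower than in the PDR3 deletion, DESeq2 gave 7, and limma and the edgeR fit without PSD1 replicates 1 and 2 together gave 0, with 195 and 144 at an unadjusted p under 0.05. For the 3 genes with a larger effect in series 6, DESeq2 gave 15, the 11 libraries alone 5, and leaving out each library 0 to 3. Without PSD1 replicates 1 and 2 together edgeR gave 0, with 94 at an unadjusted p under 0.05. As percent of FPKM in place of counts, the difference of the galactose genes was −0.735 in place of −1.14, that of ribosomal protein genes −5.89 in place of −2.64 and that of chaperones 1.46 in place of 2.33, since FPKM weights short genes more.

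With the replicate number as a block 1916 genes were higher and 1805 lower, 285 and 70 by at least 2 fold. Deviations of same-numbered empty and PSD1 libraries correlated at −0.05, −0.07, 0.17, 0.25 and 0.11, so the numbers were not taken as pairs. Library numbers also fall into 5 sets in their order, which the labels do not describe. PSD1 replicate 6 was put in the last set by order alone, though its number is far from the others there. The 6 correlations within a set were 0.43, 0.10, 0.17, 0.25, −0.18 and 0.24. With the series mean also taken out they were 0.13, 0.34, 0.32, 0.27, −0.14 and 0.11. In series 5 the pairs across sets then ran from −0.25 to 0.02, below every pair within a set. In series 6 they ran from −0.27 to 0.14 and overlapped. The main fit has no term for the set. With the set as a block 1994 genes were higher and 1856 lower, 296 and 59 by at least 2 fold. There 14 list counts moved by more than 1.5 times, or to or from 0. With series 5 alone 73 list counts moved in this way and 67 did not. The length offset moved 39, the fit without PSD1 replicates 1 and 2 together 28 and series 6 alone 26. Of 186 named genes checked, 182 passed, of which 144 kept their call in all 25 alternatives and 38 lost it in at least 1, of which 33 in series 5 alone. Of the 4 that did not pass, PDR1, ADH4 and ZPS1 passed in some alternatives. The direction reversed in 0. Genes given above that were not among the 186 include PPM2, CMR1, SPS4, STE6, ATM1, HSF1, MSN4, HSP42, HSP104, AHA1, PPT1, GRE3 and OYE3. ZWF1, TKL1, RKI1, COX19, CAR2, GCV2, SIC1, CDC3, CDC12 and POL12 were also left out of that check. The calls lost in series 5 alone were those of MSP1, YOR1, AQR1, FLR1, ICY1, SSA2, SSZ1, ZUO1, CCT5, CCT7, LHS1, UPS2, PET9, PIC2, CDS1, HNM1, POT1, ARE2, TSL1, GPH1, HXT7, ALD3, STL1, GAL10, SAM2, PTR2, PIR3, YRF1-7, VMA4, HBT1, URA3, ITR1 and XBP1.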
